A study of Rattus norvegicus with 6 samples.

Results

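Contactins are a family of 6 adhesion proteins that sit on the outer face of the cell membrane. Each carries a row of immunoglobulin domains followed by fibronectin type III domains and is held in the membrane by a glycosylphosphatidylinositol (GPI) anchor, with no part inside the cell. They are known mainly from neurons and glia, where they bind partner proteins on the same or a neighbouring cell, for example at the borders of the nodes of Ranvier, and can be released from the surface by cleavage. Here the family was followed in primary rat chondrocytes, the cells that build cartilage, with and without retinoic acid. The 6 genes, Cntn1 to Cntn6, were taken by name from the 18923 genes listed, and the family was chosen by its measured values: the low Cntn2 counts in RA were already known when it was picked. The RA against CON values of the 6 genes are therefore a description, given without a test.

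The cells were wild-type chondrocytes of 24-h-old female Sprague-Dawley rats, freed with type II collagenase and used at passage 1 or 2. They were kept in high-glucose DMEM with 10% fetal bovine serum. The 3 CON samples received no retinoic acid, and the sources name no vehicle for them. The 3 RA samples received 1 µM all-trans retinoic acid, a ligand of nuclear receptors, for 24 h. The methods speak of biologically independent replicates, and the labels do not tie the samples to separate animals or cultures, so the p-values measure the spread between these samples. Polyadenylated RNA was sequenced to between 29370025 and 38007486 counts per sample. Levels are given as CPM, the count scaled to a common library total, or as FPKM, which is also scaled by gene length and so allows genes to be compared. The detection floor of 3 counts came to between 0.0789 and 0.102 CPM. A differentially expressed gene (DEG) was a gene with an adjusted p (Benjamini-Hochberg, over the 13438 genes tested) under 0.05 in the quasi-likelihood test of edgeR and a log2 fold change larger than 0.58 up or down. Of the 8 chondrocyte markers examined, all 8 were tested. They summed to 29116 to 38316 CPM in CON and to 18048 to 19482 CPM in RA. All 8 had log2 fold changes below 0, and 7 were DEGs lower in RA, beside 2.29% of all genes tested. The eighth, Sox9, was at -0.49 (edgeR adjusted p = 0.00608), short of the fold threshold. The call of Comp was lost without CON 3 (-0.56, edgeR adjusted p = 0.0201), on the fold threshold, and without RA 1 (-0.57, 0.0506), on both criteria. Values written with ± are the mean and SD of the 3 samples of a group.

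Cntn2 was the contactin with the highest length-scaled level in CON and was lower in every RA sample. Cntn1 and Cntn3 were detected in all 6 samples, and their CON and RA ranges overlapped. Cntn4, Cntn5 and Cntn6 gave at most 4 counts in any sample. Of the 6 genes, 3 had counts high enough to be tested, and 1 of these 3, Cntn2, met both DEG criteria, beside 4.96% of all genes tested and 2.29% that were lower in RA. The CON and RA samples did not overlap for 1 of the 3, beside 32.2% of all genes tested. Nothing is read from these counts, because the same contrast chose the family.

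Cntn2 (ENSRNOG00000009033, on chromosome 13 in RefSeq) encodes contactin-2, also called TAG-1, which in myelinated axons joins axon and glia beside the node and holds potassium channels in place. Its counts were 283, 375 and 390 in CON 1, 2 and 3 and 35, 44 and 42 in RA 1, 2 and 3. The lowest CON sample thus stood far above the highest RA sample, and the groups did not overlap. Scaled by gene length, the level was 2.11 ± 0.326 FPKM in CON and 0.267 ± 0.0318 FPKM in RA. The log2 fold change was -2.99 (SE 0.175), a level 7.95-fold higher in CON than in RA. Ranked by this difference, Cntn2 was number 9 from the most negative end of the 13438 genes tested and number 5 of the 308 DEGs that were lower in RA. It was a gene of modest level before the treatment. Its FPKM stood at percentile 44.8 to 47.1 of all genes listed in the CON samples and at percentile 30.6 to 32.0 in the RA samples.

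Cntn1 (ENSRNOG00000004438, chromosome 7) encodes contactin-1, the partner of the Caspr protein at the paranode and a binding partner of tenascins and Notch. Its counts were 97, 117 and 97 in CON and 82, 87 and 86 in RA. The RA samples lay close together below the CON counts, but CON 3 was the deepest library, and after scaling for depth the groups overlapped. The level was 0.814 ± 0.169 FPKM in CON and 0.722 ± 0.0283 FPKM in RA. The log2 fold change was -0.18 (SE 0.190), within about 1 SE of no difference. It ran from -0.31 without CON 3 (SE 0.193) to -0.03 without CON 2 (SE 0.194) when 1 sample was left out.

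Cntn3 (ENSRNOG00000006144, chromosome 4), first described as BIG-1 in brain, was near the limit of what this depth can measure. It gave 18, 21 and 13 counts in CON and 16, 21 and 20 in RA. Here CON 3 was the low sample and the other 5 lay between 16 and 21 counts. The level was 0.131 ± 0.0439 FPKM in CON and 0.154 ± 0.0215 FPKM in RA. The log2 fold change was 0.23 (SE 0.348). Without CON 3 the log2 fold change was -0.02, so that sample decided its sign.

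**Figure D1:**
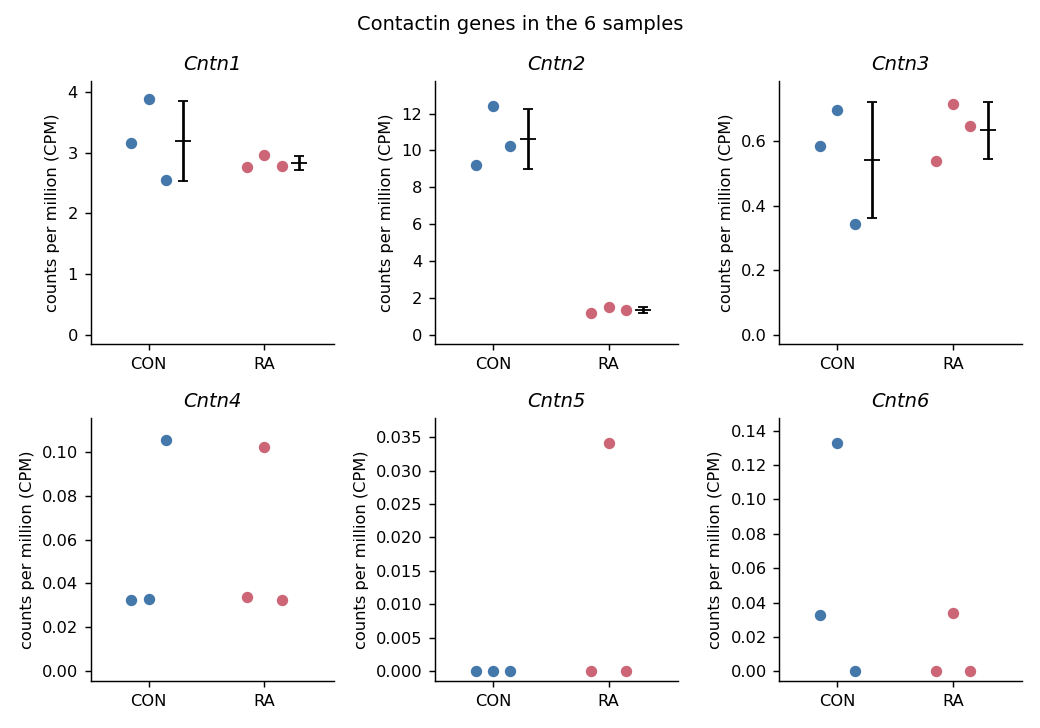
CPM of each contactin gene in the 6 samples, with CON in blue and RA in red and 1 panel per gene on its own axis. Crosses with bars show the mean and SD of 3 samples for the 3 genes with enough counts to be tested. Only in the Cntn2 panel among those 3 do the CON and RA points lie apart, at 9.22 to 12.4 CPM against 1.18 to 1.50 CPM.

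The other three contactins are best known from brain, where they bind receptor phosphatases or amyloid precursor-like proteins. Cntn4 (ENSRNOG00000005652, chromosome 4) gave 1, 1 and 4 counts in CON and 1, 3 and 1 in RA. Summed over the libraries of a group, its level was 0.0607 CPM in CON (95% exact Poisson interval 0.0223 to 0.132) and 0.0555 CPM in RA (0.0180 to 0.130). The ratio of CON to RA was 1.09 with an exact binomial interval of 0.278 to 4.52, so a several-fold difference in either direction was not detectable at this depth. Cntn6 (ENSRNOG00000032517, chromosome 4) gave 1, 4 and 0 counts in CON and 0, 1 and 0 in RA. CON 2 held 4 of its 6 counts. The summed level was 0.0506 CPM in CON (0.0164 to 0.118) and 0.0111 CPM in RA (0.000281 to 0.0619), and the interval of the ratio, 0.509 to 215, took in no difference. Cntn5 (ENSRNOG00000007038, chromosome 8) gave 1 count in RA 2 and 0 in the other samples. The 0 counts of CON gave a 95% exact Poisson interval that reached 0.0373 CPM, and the floor of 3 counts over the group was 0.0303 CPM, so no fold is given. These intervals and limits cover counting error only.

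Per length, the 6 genes together reached 2.79, 3.67 and 2.79 FPKM in CON 1, 2 and 3 and 1.07, 1.27 and 1.14 FPKM in RA 1, 2 and 3. Cntn2 supplied most of the CON sum, 68.6 ± 3.90%, and 23.0 ± 1.04% of the RA sum. The share of Cntn1 was 26.3 ± 2.81% in CON and 62.4 ± 2.93% in RA, while that of Cntn3 was 4.22 ± 1.11% and 13.2 ± 0.902%. The order of levels was Cntn2, Cntn1, Cntn3 in each CON sample and Cntn1, Cntn2, Cntn3 in each RA sample. The 3 ranges of FPKM did not touch within either group, whereas Cntn4, Cntn5 and Cntn6 could not be put in order below them. Within a sample, the ratio of 2 genes is free of the scaling between samples. The ratio of Cntn2 to Cntn1 FPKM was 2.28, 2.50 and 3.14 in CON and 0.333, 0.395 and 0.381 in RA, so the leading contactin differed between the groups in all 6 samples. The differences in share and order mostly restate the Cntn2 values by which the family was chosen. Cntn1 itself was at 0.814 FPKM in CON and 0.722 FPKM in RA, and Cntn3 at 0.131 and 0.154 FPKM. The ratio of Cntn1 to Cntn3 was 6.45 ± 1.21 in CON and 4.75 ± 0.554 in RA.

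**Figure D2:**
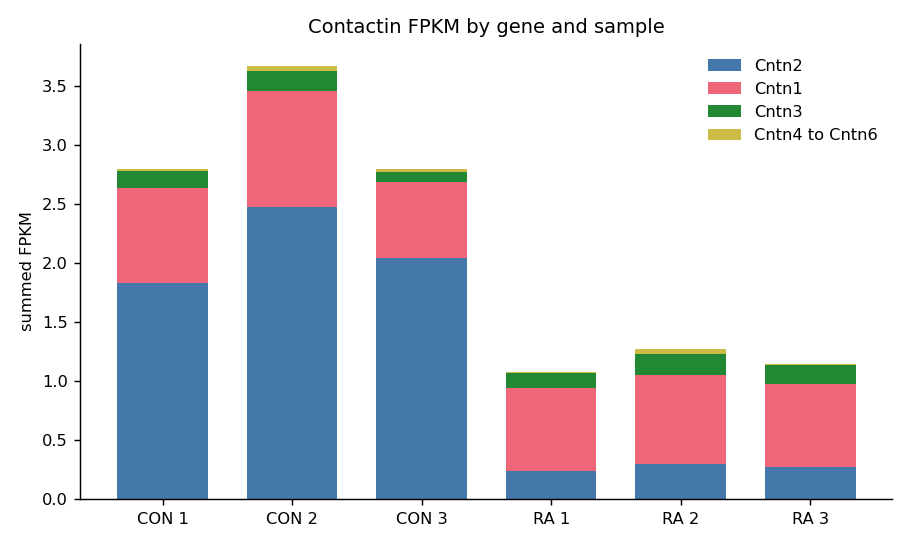
Summed FPKM of the contactin genes in each sample, stacked by gene, with the 3 CON samples on the left and the 3 RA samples on the right. Cntn2, the lowest block, makes up 65.5 to 73.0% of the CON bars and 21.8 to 23.6% of the RA bars, and the bar total runs from 2.79 to 3.67 FPKM in CON and from 1.07 to 1.27 FPKM in RA.

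The family includes a gene cluster. In the RefSeq annotation of GRCr8, Cntn3, Cntn4 and Cntn6 lie on chromosome 4 near Chl1, which encodes an L1-type adhesion protein, and Cntn1, Cntn2 and Cntn5 lie on other chromosomes. In that annotation Cntn4 overlapped 5 other genes, Cntn5 7, Cntn1, Cntn2 and Cntn3 1 each and Cntn6 0, all noncoding RNA genes or pseudogenes. None of these was found by symbol among the genes listed. Symbols can differ between builds, so overlap in the counts was not settled. The deposited counts were made on Rnor_6.0, so GRCr8 was used only for the order and overlap of genes and for the promoter windows. The windows run from 250 bases before to 50 bases after each RefSeq start. All 6 contactins had a window, but the windows are not alike in position. Those of Cntn1, Cntn3, Cntn5 and Cntn6 lay wholly inside the annotated gene, with 0 bases outside it. That of Cntn4 had 125 bases outside the gene. The contents of the 6 windows are therefore not a comparison of like promoters. The Cntn2 window is shown because Cntn2 is the member that differed, and only its 163 bases outside the annotated gene are given, at chr13:46528113-46528275 on the minus strand, 5′ to 3′.
Cntn2: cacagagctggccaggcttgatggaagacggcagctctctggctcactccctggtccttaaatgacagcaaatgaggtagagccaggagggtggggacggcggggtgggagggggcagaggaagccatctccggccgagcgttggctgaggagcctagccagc
No base is in capitals because neither of the motifs searched on both strands was found in it. The letters AGGTCA, the half-site of nuclear receptors such as the retinoic acid receptors, were absent from the whole Cntn2 window and occurred once in the Cntn1 window and in 16.2% of all 33469 windows. The letters AACAAT, a SOX-type motif, were in 0 of the 6 contactin windows and in 11.7% of all windows. The Cntn2 window was rich in G and C. Its G and C content was 67%, against 66.7% for Cntn4, 49% for Cntn1, 49.3% for Cntn6, 36.7% for Cntn5, 30.7% for Cntn3 and a median of 51.7% over all windows. The windows held 21 CpG pairs for Cntn4, 19 for Cntn2, 6 for Cntn6, 5 for Cntn1 and 0 for Cntn3 and Cntn5. These are descriptions of the letters in the windows and say nothing on binding.

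The genes nearest to Cntn2 did not include a DEG. The 3 nearest protein-coding genes on one side were Tmem81, Rbbp5 and Dstyk, and on the other Nfasc, Lrrn2 and Mdm4. Nfasc, the gene of the node protein neurofascin, had at most 6 counts in a sample and was not tested. Rbbp5, a subunit of histone methyltransferase complexes, was at 13.4 ± 0.788 FPKM in CON and 13.2 ± 0.516 FPKM in RA. Its log2 fold change was -0.04 (SE 0.0681, edgeR adjusted p = 0.776). Mdm4, an inhibitor of p53, had a log2 fold change of -0.13 (edgeR adjusted p = 0.584), Dstyk one of -0.17 (0.176) and Tmem81 one of -0.11 (0.868). Lrrn2, a leucine-rich repeat membrane protein, had 20, 20 and 34 counts in CON and 51, 50 and 36 in RA, without overlap, and a log2 fold change of 1.02 (SE 0.276) with an edgeR adjusted p of 0.0546. DESeq2 called it higher (adjusted p = 0.0421). Of these 5 tested neighbours, 0 were DEGs in edgeR, 2 had an unadjusted p under 0.05, beside 24% of all genes tested, and 1 was a DEG in DESeq2, beside 5.6% of all genes. Over the neighbours of all contactins, 1 of 19 tested (5.26%) was a DEG, beside 4.96% of all genes tested and 2.67% that rose. It was Pgr, the progesterone receptor gene near Cntn5, at 1.79 ± 0.321 FPKM in CON and 3.37 ± 0.391 FPKM in RA, a log2 fold change of 0.90 (SE 0.165, edgeR adjusted p = 0.0109). Its call was lost without RA 1 (log2 fold change 0.89, adjusted p = 0.0537) or without RA 3 (0.82, 0.0582). Lrrk2, a kinase gene near Cntn1, and Pdzrn3, a ubiquitin ligase gene near Cntn3, had log2 fold changes of -0.51 (edgeR adjusted p = 0.0195) and -0.38 (0.00529), short of the fold threshold. The other neighbours tested, Pdzrn4, Gxylt1, Yaf2, Ppp4r2, Gxylt2, Il5ra, Trnt1, Crbn, Arhgap42, Jrkl and Ccdc82, lay between -0.49 and 0.15.

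Among the genes of proteins known to bind, place or process contactins, Ptprg rose in every fit, and Nrcam was called lower in the fit of all 6 samples but in only 2 of the 6 fits that left out 1 sample, and not with the replicate block or in limma. Of 33 such genes listed, 30 were in the files, 22 were tested and 20 were not DEGs. The share called was 9.09%, against 4.96% of all genes tested, and the median log2 fold change was 0.00, against -0.01 for all genes tested. An unadjusted p under 0.05 was found for 12 of the 22, against 24% of all genes tested.

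The receptor phosphatases bind several contactins through their outer domains. Ptprg (ENSRNOG00000009419), the known partner of contactin-3 to contactin-6, was at 12.8, 13.4 and 12.3 FPKM in CON and 19.9, 21.1 and 20.5 FPKM in RA. All RA samples were above all CON samples, with a log2 fold change of 0.66 (SE 0.0614, edgeR adjusted p = 0.000352). It was a DEG under every other fit and without each sample in turn, with adjusted p of at most 0.00480. Its level in both groups was thus far above the 0.131 and 0.154 FPKM of Cntn3, the most abundant of those members. Ptpra, which associates with contactin-1 on one membrane, was at 33.2 ± 3.80 FPKM in CON and 32.6 ± 0.255 FPKM in RA (log2 fold change -0.04, edgeR adjusted p = 0.799). Ptprz1, the classical phosphatase ligand of contactin-1, had at most 9 counts in a sample and was not tested.

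The L1-type proteins bind contactin-1 and contactin-2 on axons. Nrcam (ENSRNOG00000004067), one of them, had 71, 67 and 48 counts in CON and 21, 16 and 32 in RA. The groups did not overlap, and the level was 0.238 ± 0.0715 FPKM in CON and 0.0937 ± 0.0306 FPKM in RA. Its log2 fold change was -1.34 (SE 0.335) with an edgeR adjusted p of 0.0413. The call was not stable. The adjusted p was 0.136 without CON 2, 0.145 without RA 1, 0.157 without RA 2 and 0.0567 without RA 3, with log2 fold changes from -1.62 to -1.15. With all 6 samples it was 0.0566 with the replicate block, 0.0976 in limma on log2(FPKM + 0.1) and 0.137 in limma on log2(FPKM + 1). L1cam had 29, 21 and 27 counts in CON and 12, 16 and 12 in RA, also without overlap, and a log2 fold change of -0.82 (SE 0.308, edgeR adjusted p = 0.150). Chl1 and Nfasc were not tested, with at most 9 counts in a sample.

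The Caspr proteins pair with contactins to form axon-glia junctions. Cntnap1, the partner of contactin-1, had a log2 fold change of -0.18 (SE 0.251, edgeR adjusted p = 0.705). Cntnap3, listed in the files under AABR07026805.1 and matched through its RefSeq synonym, had 93, 104 and 101 counts in CON and 56, 54 and 67 in RA. The groups did not overlap, and the log2 fold change was -0.64 (SE 0.183, edgeR adjusted p = 0.0658). Cntnap4 and Cntnap5c had too few counts to test. Cntnap2, the known partner of contactin-2, Cntnap5a and Cntnap5b were not analysed here.

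Among the other ligands, 0 of 6 tested genes were DEGs in edgeR, 5 had an unadjusted p under 0.05 (24% of all genes tested) and 1 was a DEG in DESeq2 (5.6% of all genes). The amyloid precursor genes were abundant. App was at 182 ± 3.54 FPKM in CON and 165 ± 3.48 FPKM in RA (log2 fold change -0.15, edgeR adjusted p = 0.105), and Aplp2 was at 115 ± 2.64 FPKM and 132 ± 3.13 FPKM (0.19, 0.0516). Tnc, the gene of the matrix protein tenascin-C, was at 160 ± 6.69 FPKM and 166 ± 0.919 FPKM (0.03, 0.746). Its relative Tnr, for tenascin-R, had 23, 16 and 26 counts in CON and 53, 37 and 34 in RA, without overlap. The log2 fold change of Tnr was 1.05 (SE 0.290) with adjusted p of 0.0579 in edgeR and 0.0496 in DESeq2. Notch1 had a log2 fold change of -0.38 (edgeR adjusted p = 0.134) and Aplp1 one of 0.36 (0.175).

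Inside the cell, contactin complexes are anchored by scaffold proteins and signal through the kinase Fyn. Epb41l3, for the scaffold protein 4.1B that holds Caspr proteins, was at 6.35 ± 0.236 FPKM in CON and 9.56 ± 0.176 FPKM in RA. Its log2 fold change was 0.58 (SE 0.0611, edgeR adjusted p = 0.000725), just under the fold threshold. It passed that threshold without CON 1 (0.60), without RA 2 (0.59) and in 3 other fits. Fyn was at 17.5 FPKM in both groups (log2 fold change -0.01, edgeR adjusted p = 0.912). The potassium channel genes Kcna1 and Kcna2, whose products contactin-2 places in axons, had at most 15 counts in a sample and were not tested.

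The GPI anchor is added in the endoplasmic reticulum by the GPI transamidase, whose 5 subunit genes Gpaa1, Pigk, Pigs, Pigt and Pigu were all tested. Their levels ran from 11.6 FPKM for Pigu to 79.4 FPKM for Pigt in CON. With the protease gene Bace1, 0 of the 6 were DEGs in edgeR, 0 in DESeq2 and 0 by limma on log2(FPKM + 0.1), where 4.89% of all genes were called, and 2 had an unadjusted p under 0.05 (24% of all genes tested). Pigk had a log2 fold change of -0.19 (edgeR adjusted p = 0.0793) and Pigs one of 0.20 (0.178). Gpaa1 had one of 0.26 (0.451), Pigt one of 0.05 (0.745), Pigu one of 0.02 (0.948) and Bace1 one of 0.06 (0.800). For Gpaa1, CON 1 was the low sample, at 17.8 FPKM against 31.9 in CON 2 and 30.7 in CON 3.

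Another GPI-anchored group is the IgLON proteins, small immunoglobulin adhesion proteins of neurons. Of 5 listed, 4 were tested and 1 fell, beside 2.29% of all genes tested, with a median log2 fold change of 0.07. Negr1 (ENSRNOG00000021410), a regulator of neurite growth, had 36, 46 and 42 counts in CON and 13, 17 and 18 in RA. The groups did not overlap, and the level was 0.736 ± 0.131 FPKM in CON and 0.310 ± 0.0477 FPKM in RA. The log2 fold change was -1.25 (SE 0.275, edgeR adjusted p = 0.0239). The adjusted p was 0.101 without CON 2, 0.105 without RA 1, 0.0869 without RA 2 and 0.0871 without RA 3, with log2 fold changes from -1.32 to -1.11 in these fits. Ntm had a log2 fold change of 0.73 (SE 0.325, edgeR adjusted p = 0.213), which passed without CON 1 (1.10, adjusted p = 0.0331). Iglon5 had one of 0.30 (0.629) and Lsamp one of -0.16 (0.845), and Opcml had 1 count in all.

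Among 17 other immunoglobulin adhesion genes listed, 16 were in the files, 11 were tested and 1 rose (9.09%), beside 2.67% of all genes tested, with a median log2 fold change of -0.06. Cadm1 (ENSRNOG00000018778), a transmembrane adhesion protein of epithelia and synapses, was at 6.44, 6.30 and 6.19 FPKM in CON and 13.4, 11.3 and 12.3 FPKM in RA. Each RA sample was above each CON sample, and the log2 fold change was 0.95 (SE 0.0849, edgeR adjusted p = 0.000284). It was called under every other fit and without each sample in turn, with adjusted p of at most 0.00375. Ncam1, the most abundant of this list, was at 38.2 ± 1.36 FPKM in CON and 38.8 ± 0.960 FPKM in RA (log2 fold change 0.01, edgeR adjusted p = 0.930). Alcam (0.19, 0.237), Mcam (-0.24, 0.102), Sdk2 (-0.15, 0.445) and Robo1 (-0.17, 0.166), each given with its log2 fold change and edgeR adjusted p, were not DEGs.

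**Figure D3:**
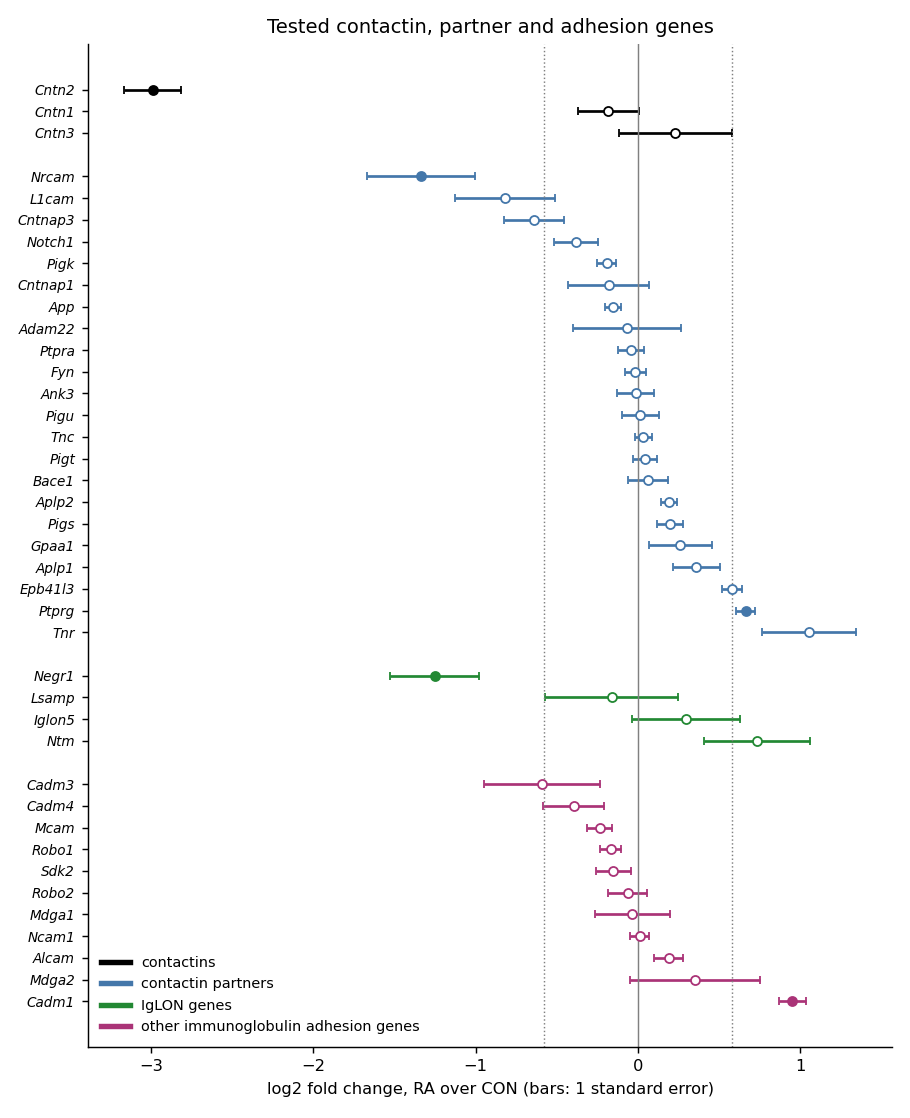
Log2 fold change of RA over CON for every contactin (black), contactin partner (blue), IgLON gene (green) and other immunoglobulin adhesion gene (purple) that passed the filter on low counts, with bars of 1 standard error. Filled points are DEGs, open points are not, and dotted lines mark the fold threshold of 0.58 in each direction. Cntn2 lies at -2.99, and the next lowest gene plotted, Nrcam, at -1.34.

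Bulk RNA does not tell which cells carry a transcript, and fewer cells of a type and less RNA per cell cannot be told apart. Schwann cells and other glia express Cntn2 in nerve, so their markers were set beside it. Of the 6 reported, 5 were in the files and 2 were tested. Both had log2 fold changes below 0 and did not overlap between the groups, beside 32.2% of all genes tested, and 1 was a DEG, beside 2.29% that were lower in RA. Gfap, a filament gene of glia, had 326, 337 and 452 counts in CON and 179, 134 and 158 in RA, without overlap. Its log2 fold change was -1.12 (SE 0.134, edgeR adjusted p = 0.00141). The myelin gene Mbp had 40, 26 and 22 counts in CON and 11, 5 and 12 in RA, also without overlap, and a log2 fold change of -1.55 (SE 0.436, edgeR adjusted p = 0.0640). It was called lower in DESeq2 (adjusted p = 0.0375) and in edgeR without CON 3 (-1.79, 0.0443). The 5 markers summed to between 12.2 and 12.8 CPM in CON and between 4.90 and 6.57 CPM in RA, and most of this was Gfap. Sox10, the defining factor of the Schwann cell lineage, gave 0, 0 and 2 counts in CON and 0 in each RA sample, and Cdh19 gave 1, 0 and 3 counts in CON and 0 in each RA sample. Erbb3 had at most 11 counts in a sample. The part of glial cells in the Cntn2 values was not tested.

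**Figure D4:**
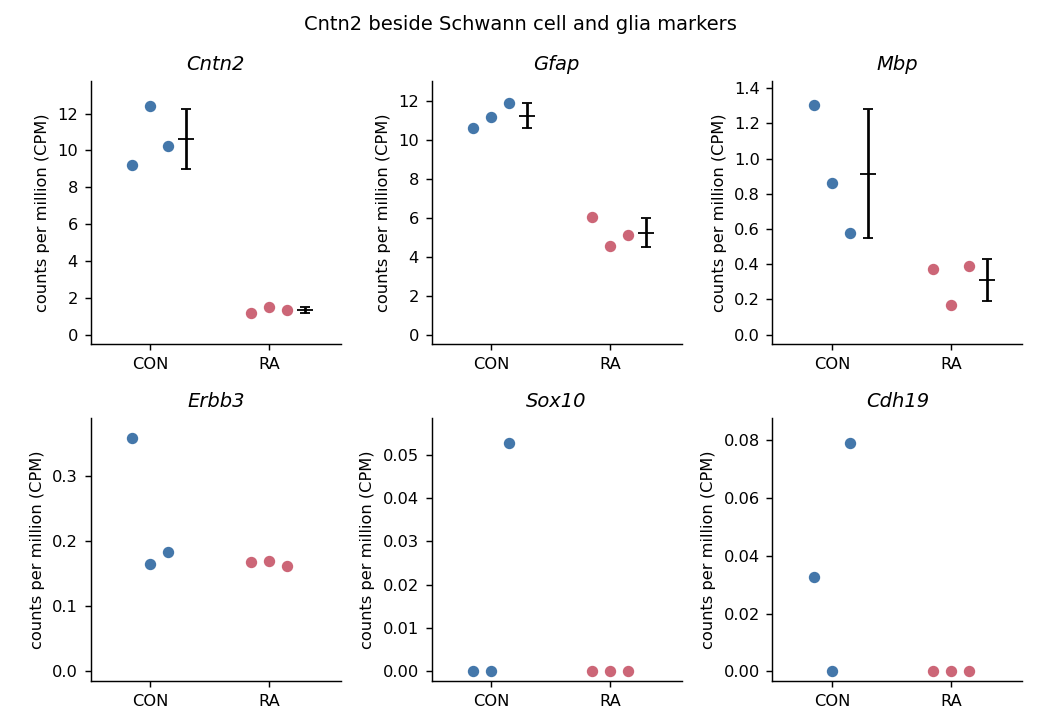
CPM of Cntn2 and of 5 Schwann cell and glia markers in the 6 samples, with CON in blue and RA in red and each panel on its own axis. Crosses with bars show the mean and SD of 3 samples for the genes tested. Cntn2, Gfap and Mbp are lower in each RA sample than in each CON sample, the Erbb3 ranges overlap, and Sox10 has counts only in CON 3.

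Neuron markers were also examined, since contactins are best known from neurons. The 7 markers summed to 47.6 to 60.5 CPM in CON and 40.0 to 48.8 CPM in RA, most of it Map2, and these ranges overlapped. Rbfox3, the nuclear marker of neurons, had at most 6 counts in a sample, and Snap25, a synaptic gene, had 47 counts in CON 2 and at most 9 in the others. CON 2 was also the sample with the highest Cntn2 level. Without CON 2 the log2 fold change of Cntn2 was -2.87, the smallest difference found when any 1 sample was left out. Skeletal muscle markers summed to 10.1 to 12.9 CPM in CON and 14.9 to 16.5 CPM in RA. Macrophage markers summed to 1.63 to 1.87 CPM and 2.07 to 2.56 CPM, so both sums were higher in RA. Of the 2 macrophage markers tested, 0 were DEGs: Cd68 (edgeR adjusted p = 0.466) and Csf1r (0.305), the latter with overlapping groups. The muscle sum was mostly Des, which was not a DEG (log2 fold change 0.39, edgeR adjusted p = 0.0766). Of the 2 muscle markers tested, 1 was a DEG higher in RA, beside 2.67% of all genes tested. It was Myod1, a muscle transcription factor gene, with 7, 4 and 7 counts in CON and 25, 22 and 17 in RA (log2 fold change 1.93, edgeR adjusted p = 0.0142). That call was lost in edgeR without CON 2 (1.76, adjusted p = 0.0666), RA 1 (1.80, 0.0728) or RA 2 (1.89, 0.0662). In limma on log2(FPKM + 1) it was lost on the fold threshold, at 0.32. The sums of perichondrium and fibroblast markers, 18864 to 25607 CPM and 24918 to 26302 CPM, were mostly Col1a1 and Col3a1 and overlapped. In the same list 1 of the 5 tested was a DEG lower in RA, beside 2.29% of all genes tested. It was Postn (-1.28, edgeR adjusted p = 0.000231). Dcn was at -0.41 (0.0378) and Col3a1 at -0.0007 (0.996). The other way went Col1a1, at 0.21 (0.301), and Thy1, at 0.13 (0.216) without overlap between the groups. Of the 5 endothelial markers listed, 3 were found, and these summed to at most 0.168 CPM. The muscle sum likewise covers 4 of its 5 markers. The part of these cell types in the Cntn2 values was not tested.

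The genes whose values followed Cntn2 most closely over the 6 samples were named by the correlation of log2 CPM among 11341 tested genes with a mean of at least 1 FPKM. They were Ptx3 (Pearson r = 0.999), Fibin, Col27a1, Igf2 and Matn3 (each 0.998). The 6 points share their libraries and fall into 2 separate groups, so a high r mostly says that both genes differ between the groups, and it is given as a description. All 5 were lower in RA, by unequal amounts. Matn3, for the cartilage matrix protein matrilin-3, was at 115 ± 12.7 FPKM in CON and 36.9 ± 2.06 FPKM in RA, a log2 fold change of -1.65. Col27a1, for a collagen of cartilage, had one of -1.43, Fibin one of -0.96 and the growth factor gene Igf2 one of -0.59. Ptx3, for a secreted pentraxin, had one of only -0.36 and was not a DEG. None of the 5 came near the -2.99 of Cntn2.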

How the data were processed

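Counts of reads per gene, not normalized, and FPKM values were deposited by the authors for each sample. The submitters' processing notes name HISAT2, HTSeq 0.13.5 and Rnor_6.0, with no versions or settings beyond these. FPKM was count scaled by gene length and by the summed counts of the sample. Strand use and the handling of shared reads are not given in the sources used here. Genes were filtered with filterByExpr (minimum count 10), and counts were tested with edgeR 4.0.16 in R 4.3.3 (TMM, quasi-likelihood, 3 CON against 3 RA, Benjamini-Hochberg adjustment). CPM used total counts. Alternatives were DESeq2 1.42.0, limma 3.58.1 on log2(FPKM + 0.1) or log2(FPKM + 1), other scalings, no filter, a replicate block and leaving out each sample. The scripts were tested on simulated data. The named genes were the contactins, their genome neighbours (3 protein-coding genes per side), each DEG or gene of at least 5 FPKM in the partner and adhesion lists, and the 5 genes most like Cntn2. Other genes were named after their values were seen. The members and lists were chosen with earlier results of these data known. The glia marker list is given without 2 of its genes, which are not reported here.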

Additional observations from a re-analysis of the deposited data

How the results depend on the processing

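Depth limits Cntn4, Cntn5 and Cntn6, and low counts limit Cntn3, Nrcam and Negr1. The log2 fold change of Cntn2 was -2.58 in limma on log2(FPKM + 0.1) and -1.29 on log2(FPKM + 1), since a pseudocount shrinks low genes, and -3.09 to -2.87 when 1 sample was left out. For all genes tested, the 667 DEGs became 434 in limma on log2(FPKM + 1) and 1319 with no fold threshold. For the contactin partners, the 2 DEGs became 1 (Ptprg) in limma on log2(FPKM + 1), and 1 to 4 when 1 sample was left out, with 4 without CON 1 (Epb41l3, Nrcam, Ptprg and Tnr). For the IgLON genes, the 1 DEG became 0 in limma on log2(FPKM + 1), with 1 unadjusted p under 0.05, and 0 to 2 when 1 sample was left out. Leaving out CON 2, RA 1, RA 2 or RA 3 gave 0 in edgeR, with 1 or 2 unadjusted p under 0.05, and leaving out CON 1 gave 2. For the genome neighbours, the 1 DEG became 2 in DESeq2, 3 with no fold threshold, and 0 to 2 when 1 sample was left out, with 0 without RA 1 or RA 3 (5 unadjusted p under 0.05 in each) and 2 without CON 2 (Lrrk2 and Pgr). The other immunoglobulin adhesion genes kept 1 DEG under every alternative.

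The labels give same-numbered CON and RA samples only a number in common and do not say whether they were paired. The correlations of their deviations were 0.0928, -0.0123 and 0.0118, which cannot settle this. Over all genes tested, 3721 had an unadjusted p under 0.05 in edgeR with the replicate block, against 3225 without it. With the replicate block the contactin partners had 1 DEG (Ptprg), and the Cntn2 log2 fold change was -2.99.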
